A study of Mus musculus with 4 samples.

Results

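Receptors for cytokines and growth factors on LSK cells were examined as a group of 9 genes, *Kit*, *Tek*, *Csf1r*, *Epor*, *Csf3r*, *Csf2ra*, *Il3ra*, *Il6st* and *Il1r1*, out of 28095 gene names on the array. Every non-control probe that the array's annotation assigned to one of these names was taken, which gave 12 probes of 41174. *Csf1r* had 3 probes, *Tek* had 2 and the other 7 genes had 1 each. The brightest probe of each gene was tested, so that 9 receptor probes stood among 22007 tested probes. The other 3, the second *Tek* probe and the dimmer *Csf1r* probes, were not tested because neither genotype had them well above background on both of its arrays. LSK cells are the lineage-negative bone marrow cells that carry Sca-1 and c-Kit, and they hold the hematopoietic stem cells (HSCs) and early progenitors (HPCs). The question was which transcripts differ in these cells when the homeodomain protein Meis1 is lost.

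Meis1-deficient cells came from *Mx1-Cre* positive *Meis1*fl/fl mice and control cells from Cre-negative *Meis1*fl/fl mice, both on the C57BL/6J background. Exon 8 of *Meis1* lies between *lox*P sites in both genotypes, and the interferon-responsive *Mx1* promoter drives Cre, whose activity is not restricted to blood cells. Per the sample labels, mice of both genotypes aged 4 to 8 weeks received 4 injections of poly(I:C), a double-stranded RNA that induces interferon, at 1.5 µg per g of body weight. The array methods and the series' design text call the controls sham-treated, so an effect of poly(I:C) itself cannot be told apart from genotype if that is correct. RNA was taken 1 week later from 2 pools of 6 mice per genotype, and each pool was read on 1 array.

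These receptors belong to a few structural families. Kit, Tek (Tie2) and Csf1r are receptor tyrosine kinases, which dimerize on ligand binding and phosphorylate themselves. Epor, Csf3r, Csf2ra, Il3ra and Il6st (gp130) are type I cytokine receptors, which have no kinase of their own and signal through bound JAK kinases and STAT transcription factors, whereas Il1r1 signals through MyD88 and IRAK kinases. In bone marrow, stem cell factor acting on Kit and angiopoietin-1 acting on Tek are known for supporting HSCs, and the receptors for erythropoietin and the colony-stimulating factors are known for guiding red cell and myeloid output.

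Values are log2 signals relative to the 75th percentile of their own array, so 0 is that percentile, and a difference of 1 is 2-fold. Slide 1 held the first array of each genotype and slide 2 the second. The second Meis1-deficient array was the dimmest, with a 75th percentile of 90.3 against 147 to 154 on the others and 49.2% of spots well above background against 54.7% to 57.4%. Its values correlated across probes at 0.891 to 0.916 with the other arrays, which correlated at 0.956 to 0.967 with each other. Each receptor difference is therefore also given without it. *Meis1* itself had log2 signals of 0.25 and 0.22 in the Meis1-deficient pools and of 1.02 and 1.45 in the control pools at A_52_P670612, a difference of -0.997, and the difference was -1.70 at A_52_P26195, which was not well above background on the dimmest array. Both were below 0 within either slide, and whether these probes lie in the deleted exon was not examined. The sort markers *Kit* and *Ly6a* (Sca-1) were well above background on all 4 arrays, as was *Cd34*, which was not part of this sort. The summed signal of the T lineage list, in multiples of the 75th percentile, was 3.86 and 2.22 in the Meis1-deficient and 3.54 and 3.71 in the control pools, with 4 and 3 against 5 and 5 of its 12 probes well above background. Both *Thy1* probes were so on all 4 arrays, *Cd3d* on both arrays of slide 2, and neither *Cd3e* probe on any. All 4 tested probes of this list were lower in Meis1-deficient cells, with a median difference of -0.47 against 0.082 over all tested probes. Both *Thy1* probes, however, were higher in Meis1-deficient cells on slide 1, by 0.355 and 0.187. Without the dimmest array their differences were 0.497 and 0.160, whereas those of *Cd8a* and *Lck* stayed below 0. The sums of the B lineage and plasma cell list were 17.9 and 43.3 against 54.2 and 26.1, and all 8 of its tested probes were lower, with a median of -0.77. The sums of the megakaryocyte list, 129 and 152 against 94.6 and 154, came mostly from its 2 *Itgb3* probes, which had differences of 0.30 and 0.53. Of its 7 tested probes 3 were lower, including *Itga2b* at -1.65 and *Pf4* at -1.35, and 4 higher, with a median of 0.094. Without the second control array, *Itga2b* was at -0.74 and *Pf4* at -0.23. None of the probes in this paragraph met the criteria given below.

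Each receptor was read through oligonucleotides of 60 bases. The first 30 bases of 3 probes are shown in the 5′ to 3′ orientation of the array file because the results turn on them: *Kit* was measured most often, *Csf2ra* had the largest difference, and *Il3ra* the largest difference among receptor probes well above background on all 4 arrays. Positions are mm9.
Kit: tgtggtcatgtacgagactgtcaccagtta
Csf2ra: tcataaaatccaacgtgccttcatgatcaa
Il3ra: gcctcgtctgccccccagaggtgatgcctg
The whole *Kit* probe (A_51_P355906) lies at chr5:76052287-76052346 on the plus strand and the *Csf2ra* probe (A_51_P341465) at chr19:61300336-61300395 on the minus strand. The *Il3ra* probe (A_51_P432651) is placed at chr14:15183673-15184484 on the plus strand, an interval of 812 bases for 60 bases of probe. Exons and untranslated regions were not annotated here.

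None of the 9 tested receptors passed the criteria that the study set for differential expression, a raw p under 0.01 together with a difference beyond 2-fold. By limma, those criteria called 0.600% of all tested probes lower and 0.136% higher with Meis1 deficiency. At the level of single receptors, *Csf2ra*, *Tek*, *Il6st*, *Csf3r*, *Csf1r* and *Kit* had differences below 0 (Meis1-deficient minus control), and *Il3ra*, *Epor* and *Il1r1* had differences above 0. The smallest unadjusted p was 0.140, for *Csf2ra*, and 0 receptor probes had an unadjusted p under 0.05 by limma or by the methods' t-test, against 2.81% and 2.40% of all tested probes. With the slide as a block, 1 of 9 did (*Csf2ra*, which entered the test through the control arrays), against 6.07% of all tested probes, and the smallest adjusted p was 0.983 without and 0.808 with the block.

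**Figure D1:**
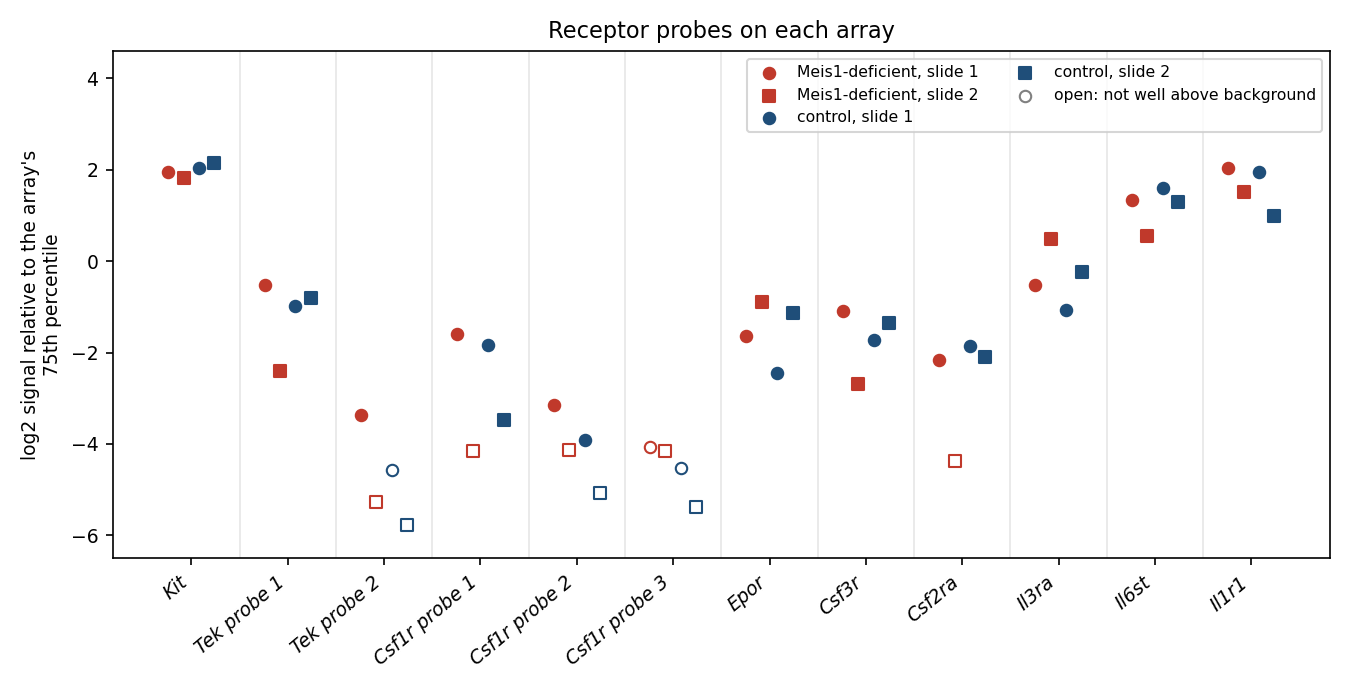
Log2 signal relative to the array's 75th percentile (vertical axis) of the 12 receptor probes (horizontal axis) on each of the 4 arrays. Red marks are Meis1-deficient and blue marks control arrays, circles are slide 1 and squares slide 2, and open marks were not well above background. *Kit* stays between 1.81 and 2.14 on all arrays, whereas *Tek* probe 1, *Csf3r* and *Csf2ra* are lowest on the Meis1-deficient array of slide 2.

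Kit, the receptor for stem cell factor, is one of the surface proteins by which LSK cells are sorted, so cells that lack the protein were not in the sample. Its log2 signal was 1.95 and 1.81 in the Meis1-deficient pools and 2.03 and 2.14 in the control pools. Both Meis1-deficient values lay below both control values, by little, and 26.8% of all tested probes had genotypes that did not overlap. The *Kit* probe was printed as 10 spots, whose SD within an array was 0.043 to 0.12 on the log2 scale. The difference between genotypes was -0.21 (SE 0.42, adjusted p = 0.983 by limma), from 1.88 ± 0.10 (SD, n = 2 arrays) in the Meis1-deficient and 2.09 ± 0.079 (SD, n = 2) in the control pools. Its 95% confidence interval ran from -1.23 to 0.82, which leaves room for a 2.35-fold lower or a 1.76-fold higher level. Within slides, the difference was -0.079 on slide 1 and -0.34 on slide 2, and without the dimmest array it was -0.13. Mast cells also carry Kit, and the 6 probes of the mast cell and basophil list summed to 2.28 and 1.91 in the Meis1-deficient and to 3.77 and 1.39 in the control pools. Their part in the *Kit* value was not tested.

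Tek is the angiopoietin receptor shared by HSCs and endothelial cells. At its brighter probe (A_51_P130374, chr4:94540861-94540919), the signal was -0.51 and -2.40 in the Meis1-deficient pools and -0.98 and -0.81 in the control pools. The Meis1-deficient arrays were thus the highest and the lowest of the 4, and the controls lay between them. The difference was -0.56 (SE 0.68, adjusted p = 0.983 by limma, 95% confidence interval -2.22 to 1.10). It was 0.47 on slide 1 and -1.59 on slide 2, and without the dimmest array it turned to 0.38. The second *Tek* probe (A_52_P234087, chr4:94408487-94408546) was well above background only on the first Meis1-deficient array, where its signal was -3.36, and it lay between -5.77 and -4.57 on the others. Of the 11 endothelial probes, 5 were not well above background on any array, including both probes of the defining marker *Cdh5*. The summed endothelial signal was 12.1 and 7.46 in the Meis1-deficient and 7.14 and 9.44 in the control pools, and its part in the *Tek* value was not tested. In RNA from pooled cells, fewer cells of a type and less RNA per cell cannot be told apart, here or for the receptors that follow.

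Csf1r, the receptor for macrophage colony-stimulating factor and interleukin-34, marks monocytes and macrophages. Its brightest probe (A_51_P365885, on chromosome 18) had values of -1.59 and -4.16 in the Meis1-deficient pools and -1.84 and -3.47 in the control pools. The values divided by slide and not by genotype, with both arrays of slide 1 above both of slide 2, and the dimmest array was not well above background, so that this probe entered the test through the control arrays. The difference of -0.22 had the widest error of the 9 receptors (SE 0.96, adjusted p = 0.990 by limma, 95% confidence interval -2.55 to 2.12). With the slide as a block, the SE was 0.49 and the interval -1.32 to 0.88, and without the dimmest array the difference was 1.06. The other *Csf1r* probes lay between -5.38 and -3.16 on all arrays, and both were higher in Meis1-deficient cells on each slide, A_52_P570471 by 0.76 and 0.95 and A_52_P602091 by 0.46 and 1.22, at signals mostly not well above background. On slide 1, A_52_P570471 was well above background in both genotypes, on slide 2 in neither, and A_52_P602091 was so on no array. Of the 12 monocyte and macrophage probes, 5 were not well above background on any array, among them *Mrc1* and both *Cx3cr1* probes, and the 6 tested ones, of *Adgre1*, *Cd68*, *C1qb*, *Ly6c1*, *Ly6c2* and *Ctss*, were well above it on all 4 arrays. The sum of the list was 30.5 and 79.3 in the Meis1-deficient and 56.2 and 35.0 in the control pools.

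Epor, the erythropoietin receptor, works as a homodimer that activates JAK2 and is needed by erythroid progenitors. The *Epor* probe (A_51_P435339, chr9:21763422-21763481) gave -1.64 and -0.89 in the Meis1-deficient pools and -2.46 and -1.14 in the control pools. On each slide the Meis1-deficient array was the higher, by 0.81 on slide 1 and by 0.26 on slide 2, but the genotypes overlapped because slide 2 was higher in both. The difference of 0.53 was smaller than its error (SE 0.60, adjusted p = 0.983 by limma, 95% confidence interval -0.92 to 1.99). Without the dimmest array it was 0.15, and without the first control array -0.12. The 13 erythroid probes summed to 243 and 461 in the Meis1-deficient pools and to 193 and 44.5 in the control pools. These sums came mostly from the 4 *Hbb-b1* probes. Of the 10 tested, 5 were higher and 5 lower, but 4 of the 5 higher probes belonged to *Hbb-b1*, and by gene 2 were higher and 5 lower. The probe that met the criteria, against 0.136% of all tested probes called higher, was that of *Rhag*, an erythroid membrane protein (1.72, SE 0.47, adjusted p = 0.983 by limma). The lineage antibodies of the sort included TER119, for which the paper gates proerythroblasts as low. All 4 *Hbb-b1* probes were well above background on all 4 arrays. The part of erythroid cells in the *Epor* value was not tested.

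Csf3r, the receptor for granulocyte colony-stimulating factor, is also a homodimer and drives neutrophil production. Signals at its probe (A_51_P515639, chr4:125721294-125721353) were -1.09 and -2.68 in the Meis1-deficient pools and -1.73 and -1.35 in the control pools. As for *Tek*, the Meis1-deficient arrays were the highest and the lowest. The difference was -0.35 (SE 0.62, adjusted p = 0.983 by limma, 95% confidence interval -1.86 to 1.17), 0.63 on slide 1 and -1.33 on slide 2, and it became 0.44 without the dimmest array. The summed neutrophil signal was 155 and 87.1 in the Meis1-deficient and 171 and 51.1 in the control pools, higher on slide 1 than on slide 2 in both genotypes. Of the 6 tested neutrophil probes, 5 were lower and 1 higher, and 1 met the criteria, against 0.600% of all tested probes called lower. This was *Elane* (neutrophil elastase), at -1.58 (SE 0.42, adjusted p = 0.983 by limma). The higher probe was that of *Mpo*, at 0.56 (SE 0.53, adjusted p = 0.983 by limma), with differences of 0.32 on slide 1 and 0.81 on slide 2. *Mpo* gave most of the summed signal on each array. The lineage gate included antibodies to Gr-1 and CD11b, and the part of neutrophils and their precursors in the *Csf3r* and *Csf1r* values was not tested.

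Csf2ra and Il3ra are the ligand-binding chains for granulocyte-macrophage colony-stimulating factor and interleukin-3, and both signal together with a beta chain. *Csf2rb* encodes the common beta chain, and in mice Il3ra can also use the chain encoded by *Csf2rb2*. *Csf2ra* gave -2.15 and -4.37 in the Meis1-deficient pools and -1.85 and -2.10 in the control pools. Both Meis1-deficient values lay below both control values, narrowly on the first array and by more on the dimmest array, where the probe was not well above background. The difference of -1.28 (2.43-fold) was the largest among the receptors and the only one beyond 2-fold, as were 10.2% of all tested probes. Its SE was 0.76 (adjusted p = 0.983 by limma, 95% confidence interval -3.13 to 0.56). With the slide as a block, the p was 0.0467 and the adjusted p 0.808 by limma, and the interval was -2.54 to -0.023. The probe entered the test through the control arrays, where it was higher, and a filter on all 4 arrays left it out, so these values do not stand as a test free of the filter. The difference was -0.30 on slide 1 and -2.27 on slide 2. Without the dimmest array it was -0.18, and with that array as the only Meis1-deficient one it was -2.39 and met the criteria, as did 10.1% of all tested probes in that fit. After normexp background correction, which adds an offset and shrinks differences of dim probes, *Csf2ra* was at -0.064 and *Il6st*, at -0.51, had the largest difference. The size of the *Csf2ra* difference therefore rested on 1 spot that was not well above background.

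*Il3ra* gave -0.53 and 0.47 in the Meis1-deficient pools and -1.06 and -0.24 in the control pools. On both slides the Meis1-deficient array was the higher, by 0.54 and by 0.71, and the difference was 0.62 (1.54-fold, SE 0.56, adjusted p = 0.983 by limma, 95% confidence interval -0.73 to 1.98). The genotypes overlapped, because slide 2 was above slide 1 by 1.00 in Meis1-deficient and by 0.82 in control cells. Without the dimmest array, the *Il3ra* difference was 0.12. For *Csf2rb*, the brightest of 3 tested probes (A_52_P52618) had a difference of 0.16 (SE 0.68, adjusted p = 0.989 by limma), with signals of 2.20 and 0.69 in the Meis1-deficient and 1.83 and 0.74 in the control pools. At this probe slide 1 was above slide 2, the reverse of *Il3ra*, and the difference was 0.92 without the dimmest array and -0.60 without the other Meis1-deficient one. The other *Csf2rb* probes had differences of -0.99 (A_52_P492939) and -0.046 (A_52_P664853), which became 0.21 and 0.66 without the dimmest array.

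Over the 4 arrays, the tested probes of other genes whose centered signals lay nearest to *Il3ra* were *S1pr2*, *Acaa1a* and *St8sia5*, at root mean square distances of 0.018, 0.018 and 0.030. Their differences were 0.59, 0.59 and 0.65, and each was higher on slide 2 in both genotypes. *S1pr2* and *Acaa1a* were well above background on all 4 arrays, and *St8sia5* on the Meis1-deficient arrays only. With 4 arrays, such a likeness is a description only.

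Il6st, or gp130, is the signal-transducing chain shared by the receptors for interleukin-6, interleukin-11, oncostatin M and leukemia inhibitory factor. Its probe (A_51_P473888, chr13:113296586-113296645) gave 1.34 and 0.55 in the Meis1-deficient pools and 1.60 and 1.30 in the control pools. The Meis1-deficient array was the lower on both slides, by 0.27 on slide 1 and by 0.75 on slide 2, and the first Meis1-deficient array overlapped the controls. The difference was -0.51 (SE 0.48, adjusted p = 0.983 by limma, 95% confidence interval -1.68 to 0.66), from 0.94 ± 0.55 (SD, n = 2 arrays) in the Meis1-deficient and 1.45 ± 0.21 (SD, n = 2) in the control pools. Without the dimmest array the *Il6st* difference was -0.12. *Il6ra*, the chain that binds interleukin-6, had a difference of -0.95 (SE 0.67, adjusted p = 0.983 by limma) at A_51_P415855. It was -0.044 without the dimmest array, where the probe was not well above background, so that it entered the test through the control arrays. The other *Il6ra* probe (A_51_P415863) was not tested. It was well above background on the first control array only and had differences of -1.99 on slide 1 and -1.79 on slide 2.

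Il1r1 binds interleukin-1 and belongs to the family of Toll-like and interleukin-1 receptors. The signals at A_51_P271503 (chr1:40372667-40372726) were 2.04 and 1.51 in the Meis1-deficient pools and 1.96 and 0.99 in the control pools. On slide 1 the arrays were almost equal, with a difference of 0.076, and on slide 2 the Meis1-deficient array was higher by 0.52. The difference was 0.30 (SE 0.52, adjusted p = 0.983 by limma, 95% confidence interval -0.97 to 1.57). Unlike those of the other receptors with a difference above 0, it was larger without the dimmest array, at 0.56, and it turned to -0.19 without the second control array.

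**Figure D2:**
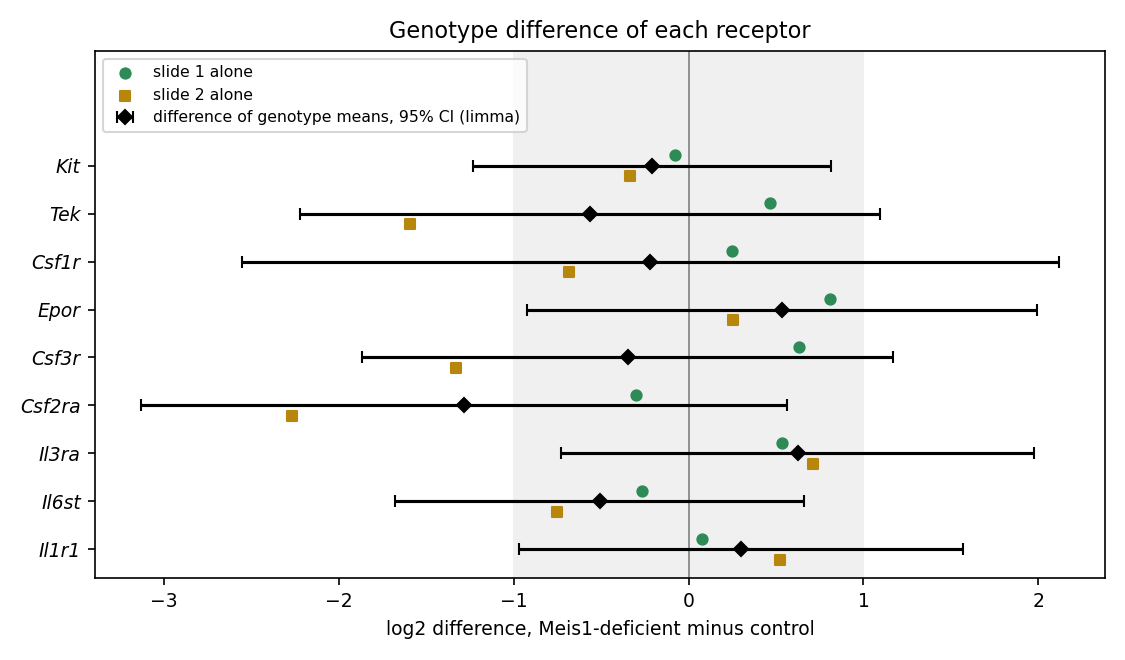
Log2 difference of Meis1-deficient minus control LSK cells (horizontal axis) for the tested probe of each receptor. Diamonds are differences of the genotype means with limma's 95% confidence interval, green circles are slide 1 alone, gold squares are slide 2 alone, and the gray band is within 2-fold. Every interval includes 0, and *Tek*, *Csf1r* and *Csf3r* have opposite signs on the slides.

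As a group, 6 of the 9 receptors had a difference below 0 and 3 above 0, with a median of -0.22 against 0.082 over all tested probes. The median receptor difference was 0.25 on slide 1 and -0.68 on slide 2, and 0.15 without the dimmest array. For 6 of 9 receptors (66.7%), both slides gave the same sign, as for 51.2% of all tested probes. *Kit*, *Il6st* and *Csf2ra* were lower and *Epor*, *Il3ra* and *Il1r1* higher in Meis1-deficient cells on both slides. Genotypes did not overlap for 2 of 9 receptors (22.2%), *Kit* and *Csf2ra*, against 26.8% of all tested probes.

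Most receptors differed more between slides than between genotypes. For 7 of 9 receptors (77.8%), the mean shift from slide 1 to slide 2 was larger in size than the difference between genotypes, as for 59.8% of all tested probes. The median size of this shift was 0.86 for the receptors and 0.46 for all tested probes. *Epor* and *Il3ra* were higher on slide 2 in both genotypes, and *Csf1r*, *Csf2ra*, *Il6st* and *Il1r1* lower. In *Tek*, *Csf3r* and *Kit*, the slides moved in opposite directions in the genotypes. The dimmest array gave the lowest of the 4 signals for 6 of 9 receptors (66.7%), *Kit*, *Tek*, *Csf1r*, *Csf3r*, *Csf2ra* and *Il6st*, and for 32.3% of all tested probes. The part of its lower signal in these values was not tested.

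**Figure D3:**
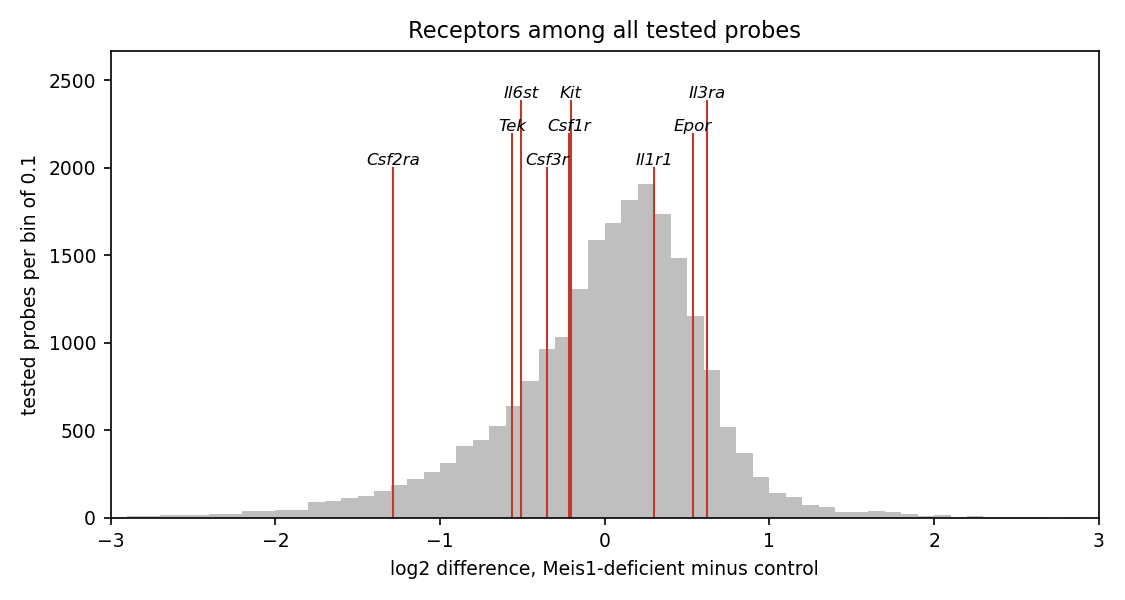
Number of tested probes (vertical axis) per bin of log2 difference, Meis1-deficient minus control (horizontal axis), for all 22007 tested probes, with 75 probes beyond the limits of -3 and 3. Red lines mark the 9 receptors, which run from *Csf2ra* at -1.28, among the 10.2% of probes beyond 2-fold, to *Il3ra* at 0.62.

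**Figure D4:**
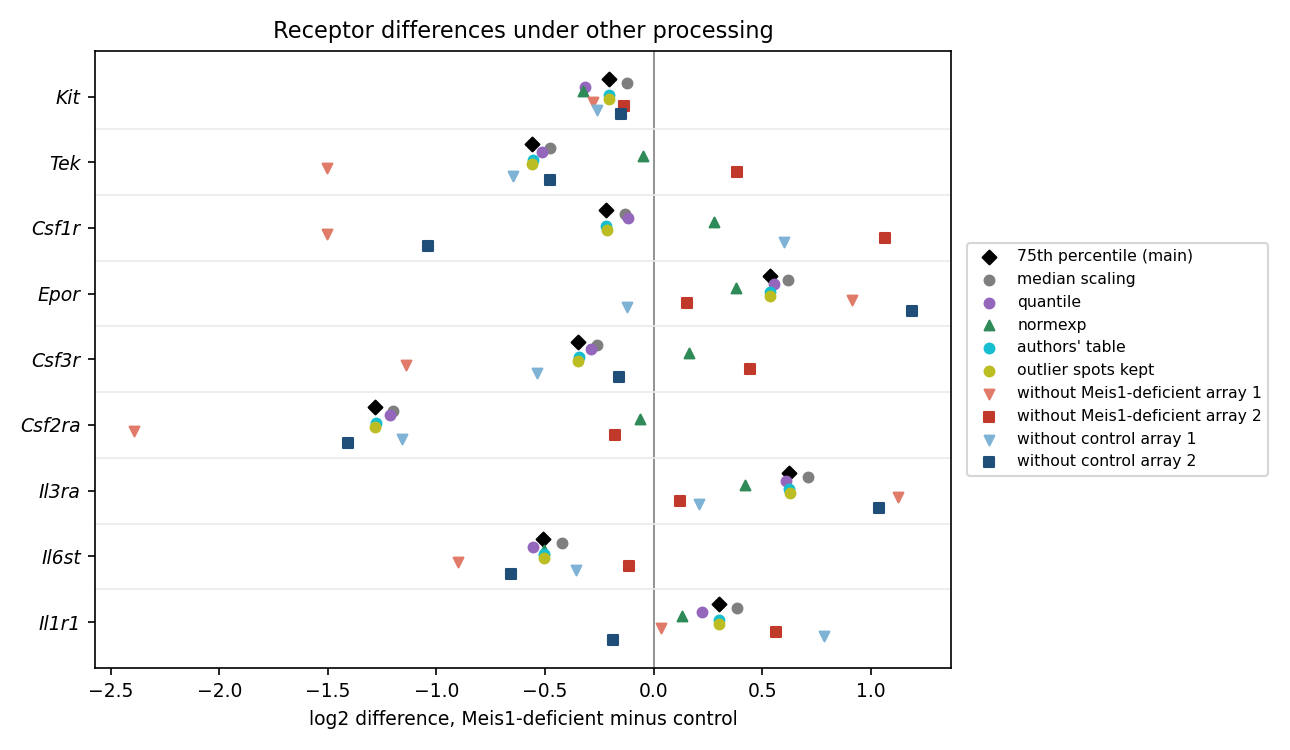
Log2 difference, Meis1-deficient minus control (horizontal axis), of each receptor under the scaling used here, under other processing and with each array left out. Under median and quantile scaling all 9 receptors keep their sign, whereas leaving out the second Meis1-deficient array (red squares) turns *Tek*, *Csf1r* and *Csf3r* above 0.

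Around the receptors, 65 genes of the same pathways were listed by role, of which 64 were on the array and 52 had a tested probe. Of their 89 tested probes, 46 were lower and 43 higher in Meis1-deficient cells, with a median difference of -0.0039. The criteria were met by 1 probe lower and 0 higher, and with the slide as a block by 1 lower and 1 higher, when they called 1.40% of all tested probes lower and 0.591% higher.

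Among the ligands, 7 of 21 probes were tested, with 4 lower and 3 higher. The probes of *Kitl* (stem cell factor), *Epo*, *Csf2*, *Csf3* and *Il3* were not well above background on any array. *Il6*, whose product signals through Il6st, was the ligand past the criteria in the fit with the slide as a block (A_51_P217218, chr5:30346362-30346421). Its signal was -1.35 and 1.12 in the Meis1-deficient pools and -2.02 and -3.82 in the control pools, and the second control array was not well above background, so the probe entered the test through the Meis1-deficient arrays. The Meis1-deficient array was thus higher by 0.68 on slide 1 and by 4.95 on slide 2. From slide 1 to slide 2 the signal changed by 2.47 in Meis1-deficient and by -1.80 in control cells, the latter down to the dim control array. A filter on all 4 arrays left the probe out. The difference was 2.81 (SE 0.96, adjusted p = 0.983 by limma and 0.444 with the block), and without the dimmest array the difference was 1.58.

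Among the partner and related receptors, 18 of 32 probes were tested, with 8 lower, 10 higher and a median of 0.12. The one that met the criteria, with and without the block, was *Flt3*, the receptor tyrosine kinase of lymphoid-primed progenitors and a relative of Kit and Csf1r. It was at -2.32 and -4.72 in Meis1-deficient cells, the latter not well above background, and at -0.19 on both control arrays. The *Flt3* difference of -3.33 (SE 0.80, adjusted p = 0.983 by limma) became -2.13 without the dimmest array and -4.53 without the other Meis1-deficient one. The probe entered the test through the control arrays, and a filter on all 4 arrays left it out.

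Downstream of the receptors, no probe met the criteria with or without the block. The kinases and adaptors had 22 tested probes lower and 14 higher, with a median of -0.15. By gene, 8 were lower at all tested probes, 5 higher and 4 mixed. Without the dimmest array many of the lower probes, including all of *Jak1* and *Irak1*, turned above 0. Some higher probes, among them probes of *Jak3* and *Vav1*, turned below 0. The STATs had 4 lower and 6 higher, with a median of 0.041, and the targets and feedback inhibitors 8 lower and 10 higher, with a median of 0.074.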

How the data were processed

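RNA of LSK cells was profiled on 4 one-color arrays, 2 per genotype, and groups and replicate numbers were taken from the sample labels. The authors deposited spot intensities from Feature Extraction 9.5.3.1 per the file headers (the submitters' processing notes name 9.1), which subtracts background and detrends within an array. It does not scale arrays to each other, and a surrogate replaces signals not above background. The authors' table of the series holds the same intensities, rounded. After removal of control and outlier spots, spots of a probe were averaged, and the 75th percentile of each array was subtracted from its log2 values. Tested probes were those that either genotype had well above background on both arrays. limma 3.58.1 (lmFit, eBayes, R 4.3.3) compared the genotypes, p-values were adjusted by Benjamini-Hochberg over all 22007 tested probes, and the fit was tested on simulated arrays. Student's unpaired two-tailed test, which the paper's methods name, was run as "the methods' t-test".

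The array number limits the precision: an exact two-sided permutation test of 2 against 2 arrays cannot go below p = 0.333. The pools were separate by the array methods, so the spread holds both biological and technical variation. By the file headers, arrays with the same replicate number shared a slide. Their deviations from the mean of the genotype had a correlation of 0.266 over probes, so a fit with slide as a block is given where stated. Every probe of the 9 receptors is named, besides *Meis1*, pathway genes that met the criteria, *Flt3*, *Csf2rb*, *Il6ra* and the 3 probes most like *Il3ra*. *Rhag*, *Elane*, single markers and genes of the kinases and adaptors were named after their values were seen. Some single genes are not reported here. The members and gene lists were chosen with earlier results of these data known. Of 12 receptor probes, 10 had accessions that matched their symbol in a RefSeq gene table (GRCm38.p6), and the others keep the array's name. Probe levels are not compared between genes, because probes differ in brightness at the same amount of RNA.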

Additional observations from a re-analysis of the deposited data

How the results depend on the processing

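Scaling by the median or by quantiles, normexp (offset 50), the series table of the authors, a looser and a stricter filter on dim probes, outlier spots, the slide as a replicate block, other tests and the loss of each array were tried as alternatives. Where an array was left out, the remaining one was taken to vary as the arrays of the other genotype do. No receptor probe met the criteria under these alternatives except with arrays left out, where the count was 0 to 1 (*Csf2ra* without the first Meis1-deficient array, when 10.1% of all tested probes met them). The filter on all 4 arrays left out *Csf1r* and *Csf2ra*. Of 124 values of single receptors, 115 kept their sign and call. The filters, the block and the other tests leave the difference itself as it was, so there only the call could change. Normexp turned *Csf1r* to 0.28 and *Csf3r* to 0.16, and moved *Csf2ra* from -1.28 to -0.064 and *Tek* from -0.56 to -0.049. With 1 array left out, the difference ranged from -1.50 to 1.06 for *Csf1r*, -1.14 to 0.44 for *Csf3r*, -1.51 to 0.38 for *Tek*, -0.12 to 1.19 for *Epor*, -0.19 to 0.79 for *Il1r1* and -2.39 to -0.18 for *Csf2ra*. The receptor median of -0.22 turned to 0.13 with normexp and to 0.046 over all 12 probes without the filter, and ranged from -0.90 to 0.15 with 1 array left out. The count of 1 pathway probe became 2 without the filter, 0 with all 4 arrays required, 2 with the replicate block and 0 by the methods' t-test. Over all probes, the main fit called 132 lower and 30 higher. The calls were 194 and 100 without the filter and 43 and 10 with all 4 arrays required. They were 307 and 130 with the replicate block and 23 and 7 by the methods' t-test. With the replicate block, *Meis1* probe A_52_P26195 met the criteria at -1.70, as it did without the first Meis1-deficient array, and it ranged from -2.23 to -1.16 with 1 array left out and was -0.27 with normexp. The replicate block changed the call of no receptor. The causes of these changes were not tested. Signal over background limits *Csf1r* and *Csf2ra*, which were not well above background on the dimmest array.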

Other observations

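Of the 12 neutrophil probes, 10 were lower on slide 2 than on slide 1 in both genotypes, and those of *Elane* and *Prtn3* were higher. *Elane* divided the arrays by genotype instead, at -2.56 and -2.30 in the Meis1-deficient pools and -0.87 and -0.84 in the control pools. *S100a9* had log2 signals of 5.01 in Meis1-deficient and 6.06 in control cells on slide 1, and of 1.85 and 1.31 on slide 2. *Mmp8* was at -1.06 and -0.11 on slide 1, and at -5.33 and -5.10 on slide 2, where it was not well above background. In this list, 10 and 11 probes were well above background on the arrays of slide 1, and 6 on each array of slide 2. These markers were chosen after their values had been seen.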
